A study of Mus musculus with 12 samples.

Results

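Heat shock chaperones are described here through 10 genes of mouse regulatory T (Treg) cells, taken by symbol from a table of 24502 genes. They encode HSP70 (Hspa1a, Hspa1b, Hspa8), its J-domain partners (Dnajb1, Dnaja1), HSP110 (Hsph1), HSP90 (Hsp90aa1, Hsp90ab1) and the mitochondrial HSP60 and HSP10 (Hspd1, Hspe1). All 10 were in the table, and all 10 were among the 14827 genes that passed the filter on low counts. The genes were chosen with their difference between the genotypes in unstimulated cells already known. That difference is given as a description, with no p-value, and nothing is read from how many of them pass the threshold. Other earlier results of these data were known as well, so p-values and calls of the 10 genes between stimulated genotypes are descriptions too. The study, titled as one of Gpx4, lipid peroxidation and ferroptosis in Treg cells, measured RNA by sequencing in 12 libraries that form 4 groups of 3. The groups were Foxp3CreGpx4fl/fl cells and wild-type cells kept for 4 h on plates coated with anti-CD3 and anti-CD28 (5 µg/ml), and Foxp3CreGpx4fl/fl cells and wild-type cells left unstimulated. All mice were 11 weeks old. In Foxp3CreGpx4fl/fl mice, called Gpx4-deficient from here on, Cre recombinase under the control of Foxp3 removes Gpx4, the enzyme that reduces lipid hydroperoxides in membranes, from cells that express Foxp3. The labels call the controls only WT, so effects of Cre and of the deletion cannot be told apart. How long the unstimulated cells were in culture, if at all, is not given, and effects of the antibodies and of culture cannot be told apart either.

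Heat shock proteins are chaperones that hold, fold or disaggregate other proteins. In the cytosol, J-domain proteins hand unfolded clients to HSP70, HSP110 recycles the nucleotide on HSP70, and HSP90 acts later on kinases, receptors and other clients; in mitochondria, HSP60 forms a folding chamber that HSP10 closes. The inducible members are driven by the transcription factor HSF1, which binds heat shock elements, runs of the unit GAA and its reverse TTC, when unfolded proteins accumulate. Some of the genes, among them Hspa8, Hsp90ab1 and Hspd1, are also expressed at high levels in unstressed cells.

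The libraries held 24629230 to 31879267 counts. The number of genes detected was lowest in stimulated Gpx4-deficient libraries, at 13953 to 14886, against 15091 to 17536 in the libraries of the other groups. Gpx4 averaged 7.03 ± 3.22 CPM (counts scaled to a common library size) in stimulated Gpx4-deficient libraries against 86.5 ± 19.4 CPM in stimulated wild-type ones. Without stimulation it averaged 8.20 ± 3.77 CPM in Gpx4-deficient libraries against 153.7 ± 16.1 CPM in wild-type ones (SD, n = 3 each), as the labels say. All 8 markers of Treg and T cells, Foxp3 included, were detected in every group. Mitochondrially encoded transcripts made up 3.19 ± 0.467% of counts in stimulated Gpx4-deficient libraries, against 1.27 ± 0.0972%, 1.79 ± 0.129% and 1.32 ± 0.0907% in the stimulated wild-type, unstimulated Gpx4-deficient and unstimulated wild-type ones. Whether the 3 libraries of a group represent different mice is not stated in the labels, so errors and p-values cover the spread between libraries only, and part or all of it may be technical. The genotypes carry separate ranges of library numbers, and a batch of library preparation cannot be told apart from genotype. In these bulk samples, fewer cells with a transcript and less of it per cell cannot be told apart.

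The promoters show what the HSP70 pair and the mitochondrial pair share in sequence. RefSeq promoter windows (GRCm38.p6, 250 bases before to 50 after a transcript start) were found for 7 of the 10 genes, all except Hspa8, Hsp90aa1 and Hsp90ab1. Hspa1a and Hspa1b lie on the minus strand of chromosome 17, with 9951 bases between them, and their windows match at 296 of 300 bases. The stretch from 130 to 60 bases before the start, chr17:34972216-34972286 for Hspa1a and chr17:34959298-34959368 for Hspa1b, is the same in both. Hspd1 and Hspe1 are transcribed away from each other on chromosome 1 and overlap by 112 bases. The stretch chr1:55088053-55088082, printed on the plus strand, lies upstream of the Hspe1 start and of the second Hspd1 start, but downstream of the first Hspd1 start and inside an annotated exon of Hspd1. The stretches for Dnaja1 (chr4:40722333-40722362, plus strand) and Hsph1 (chr5:149636351-149636380, minus strand) are shown beside them. The Dnaja1 stretch overlaps annotated exon sequence of Dnaja1 and Gm6297, and the Hsph1 stretch that of Hsph1. Capitals mark the GAA and TTC units of each match to a pair of facing units, GAANNTTC or TTCNNGAA, searched on both strands.
Hspa1a: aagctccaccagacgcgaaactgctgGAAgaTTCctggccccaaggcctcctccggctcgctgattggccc
Hspa1b: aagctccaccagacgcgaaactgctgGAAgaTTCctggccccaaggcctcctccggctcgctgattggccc
Hspe1 and Hspd1: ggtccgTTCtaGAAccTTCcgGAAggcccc
Dnaja1: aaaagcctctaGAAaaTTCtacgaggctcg
Hsph1: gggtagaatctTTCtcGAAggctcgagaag

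Several genes have more than 1 start, and a pair of units was in 7 of the 12 windows of the 7 genes, against 15.1% of the 32851 RefSeq windows of 27025 genes. These 7 windows belong to 6 genes, all except Dnajb1, and are not independent, since Hspa1a and Hspa1b are copies and Hspd1 and Hspe1 share their letters. The same pair extended by a further facing unit after any 2 bases, a run of 3 units searched on both strands, was in 4 of the 12 windows, those of 3 genes (Hspd1, Hspe1 and Hsph1), against 0.603% of all windows. The pair of Hspa1a and Hspa1b begins 104 bases before the start, and that of Dnaja1 begins 124 bases before the first of its starts. In the Hspe1 window 3 overlapping pairs run from 89 to 72 bases before the start, and the same letters begin 144 bases before the second start of Hspd1, while the window of its first start has no pair. In Hsph1 a pair begins 33 bases before one start and 54 before the other, and the run of 3 lies after both. A match is a description of letters and says nothing of binding.

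Without stimulation the chaperone transcripts were higher in Gpx4-deficient than in wild-type Treg cells, most of all those for inducible HSP70. Summed over the 10 genes they made up 1.64% to 2.09% of counts in Gpx4-deficient libraries against 0.747% to 0.801% in wild-type ones. The log2 fold change was positive for all 10 genes, with a median of 0.75, against a median of 0.01 over all tested genes. Hspa1a, Hspa1b, Hspa8 and Dnajb1 were called higher (edgeR quasi-likelihood test, Benjamini-Hochberg adjusted p under 0.05) and none was called lower. Of all tested genes, 0.054% were called higher and 0.0135% lower; the genes were chosen on this comparison, and their count supports nothing. For 9 genes every Gpx4-deficient library lay above every wild-type library, and only Hspd1 overlapped. Of all genes, 8.42% were separated in that direction. The choice of the genes rests on these same libraries, so the signs and the separation support nothing either.

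**Figure D1:**
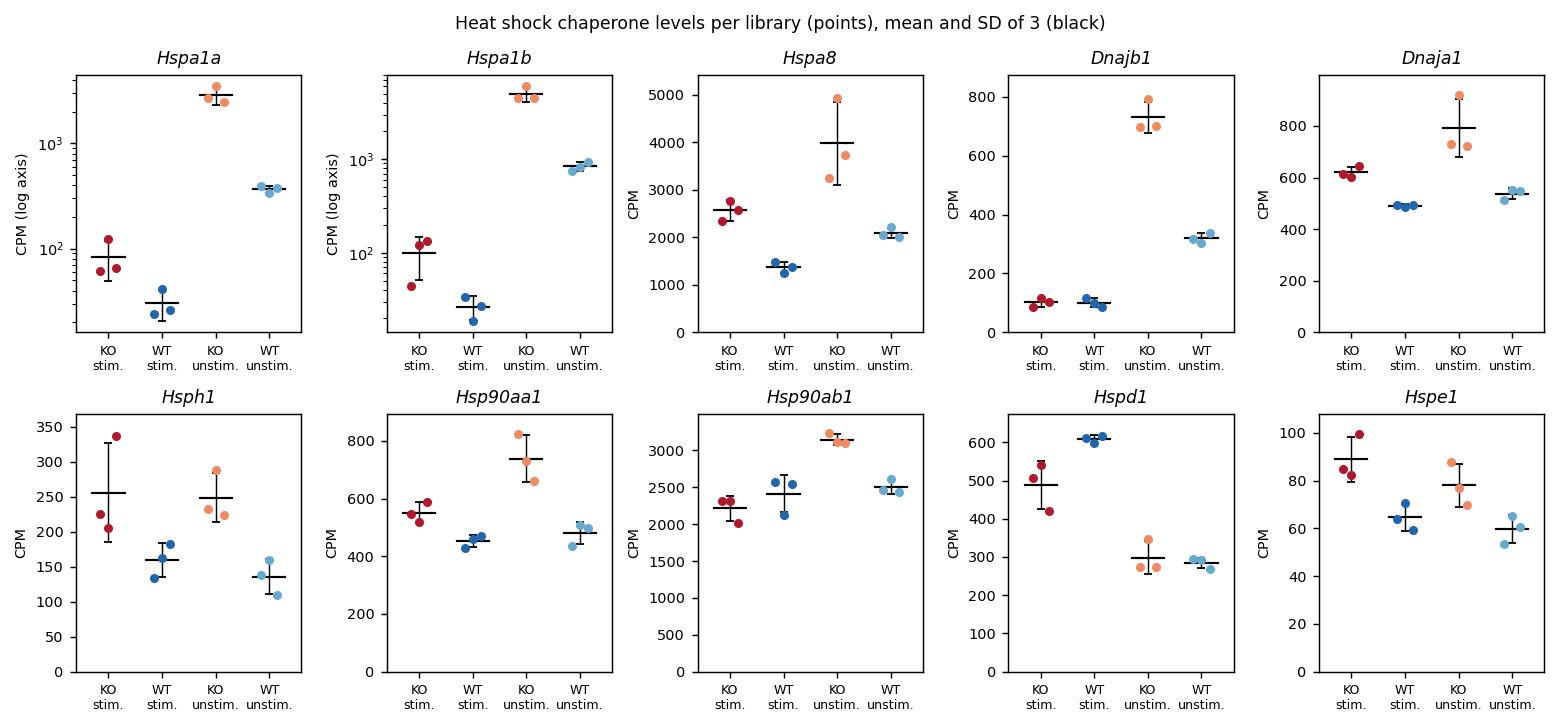
CPM of the 10 genes in each library (points), with the mean and SD of 3 (black), for stimulated and unstimulated Gpx4-deficient (KO) and wild-type (WT) cells; the y axes of Hspa1a and Hspa1b are logarithmic and the others start at 0. The unstimulated Gpx4-deficient libraries are the highest group for most genes, while Hspd1 is highest in stimulated wild-type libraries.

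Inducible HSP70 is made from Hspa1a (chr17:34969190-34972156, minus strand) and Hspa1b (chr17:34956436-34959238, minus strand), which encode nearly identical proteins. Of the 50-base stretches in the transcripts of Hspa1b, 62.3% also occur in those of Hspa1a, so the split of reads between them is uncertain and their sum is given too. Without stimulation, Hspa1a stood at 2668, 3481 and 2454 CPM in Gpx4-deficient replicates 1 to 3 against 390.1, 336.5 and 375.1 CPM in the wild-type ones. Hspa1b stood at 4517, 6024 and 4466 CPM in Gpx4-deficient replicates against 750.7, 817.1 and 941.9 CPM in wild-type ones. The lowest Gpx4-deficient library was far above the highest wild-type library for either gene. On the log2 scale the fold change was 2.97 (standard error, SE, 0.29) for Hspa1a and 2.58 (SE 0.35) for Hspa1b.

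The sum of both genes was 7187, 9504 and 6920 CPM in unstimulated Gpx4-deficient libraries against 1141, 1154 and 1317 CPM in unstimulated wild-type libraries, a log2 fold change of 2.71 (SE 0.25) or 6.54-fold. After stimulation it was 105.4, 245.5 and 199.2 CPM in Gpx4-deficient libraries against 57.9, 60.5 and 52.7 CPM in wild-type libraries. All 3 stimulated Gpx4-deficient libraries thus remained above the wild-type ones at a much lower level, with replicate 1 nearest to them. Given as a description, since the genes were chosen with earlier results known, this difference was 1.68 on the log2 scale (SE 0.24, 3.22-fold, edgeR adjusted p = 0.00491). It was called without any 1 of the 6 libraries. It was not called by limma-voom (adjusted p = 0.335) or by edgeR on the 6 stimulated libraries alone (adjusted p = 0.143), alternatives chosen after seeing the data, while DESeq2 called it. Stimulated against unstimulated, the sum was 42.9-fold lower in Gpx4-deficient cells and 21.1-fold lower in wild-type cells. The log2 fold changes were -5.42 (SE 0.28) and -4.40 (SE 0.27), and the difference between them, -1.02 (SE 0.33), was not called.

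Taken singly, after stimulation Hspa1a stood at 61.8, 123.6 and 65.8 CPM in Gpx4-deficient libraries against 23.8, 41.7 and 26.0 CPM in wild-type ones. The groups did not overlap, and Hspa1a was called higher by a log2 fold change of 1.46 (SE 0.28, edgeR adjusted p = 0.0215). Hspa1b stood at 43.7, 121.8 and 133.5 CPM in Gpx4-deficient libraries against 34.0, 18.8 and 26.8 CPM in wild-type ones, with a log2 fold change of 1.91 (SE 0.35, edgeR adjusted p = 0.0174). Hspa1a lost its call without wild-type replicate 1 or 3 (adjusted p up to 0.104 over the libraries left out) and Hspa1b without wild-type replicate 2 or 3 (up to 0.0676). Neither was called by limma-voom, or by edgeR on the 6 stimulated libraries alone (adjusted p = 0.194 for Hspa1a and 0.165 for Hspa1b). Hspa1a made up 36.4 ± 0.855% of the sum in unstimulated Gpx4-deficient libraries and 30.6 ± 3.12% in unstimulated wild-type ones. After stimulation its share spread over 33.0% to 58.6% in Gpx4-deficient and 41.2% to 69.0% in wild-type libraries.

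Hspa8 (chr9:40800984-40810087, plus strand) encodes the constitutive HSP70 of the cytosol. It shares 38.6% of its 50-base stretches with 14 other annotated genes, mostly the predicted gene Gm15459, so the assignment of reads from those stretches is uncertain. How far this affects its counts was not measured. After stimulation Hspa8 stood at 2341, 2771 and 2576 CPM in Gpx4-deficient libraries against 1485, 1250 and 1372 CPM in wild-type libraries. Without stimulation it stood at 3251, 4930 and 3737 CPM in Gpx4-deficient libraries against 2050, 2206 and 1996 CPM in wild-type ones. The Gpx4-deficient libraries were higher in each state and the groups did not overlap. Its log2 fold change between genotypes was 0.90 with stimulation (SE 0.13, edgeR adjusted p = 0.00585, called without any 1 library) and 0.93 without it (SE 0.13). Stimulated against unstimulated, Hspa8 was lower in both genotypes, with log2 fold changes of -0.63 (SE 0.13) in Gpx4-deficient and -0.61 (SE 0.13) in wild-type cells that differed by -0.03 (SE 0.19). The call in wild-type cells was lost without stimulated wild-type replicate 2 and in limma-voom, and that in Gpx4-deficient cells in edgeR on those 6 libraries alone. The ratio of the HSP70 pair to Hspa8 was 1.997 ± 0.189 in unstimulated Gpx4-deficient libraries against 0.580 ± 0.0714 in unstimulated wild-type ones. With stimulation that ratio was 0.0703 ± 0.0226 in Gpx4-deficient libraries against 0.0419 ± 0.00561 in wild-type ones (SD, n = 3 each), with overlapping values.

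Dnajb1 (chr8:83608193-83612653, plus strand) encodes the stress-inducible J-domain partner of HSP70. It stood at 696.4, 791.0 and 702.6 CPM in unstimulated Gpx4-deficient libraries against 318.7, 303.1 and 336.6 CPM in unstimulated wild-type ones. With stimulation it stood at 86.8, 115.8 and 102.8 CPM in Gpx4-deficient libraries against 116.9, 99.6 and 87.6 CPM in wild-type ones. The genotypes were thus apart without stimulation and overlapped with it. Between genotypes the log2 fold change was 1.19 without stimulation (SE 0.14) and 0.01 with it (SE 0.14, edgeR adjusted p = 0.999), where its 3 libraries a group had group means of 101.8 ± 14.5 and 101.4 ± 14.7 CPM in Gpx4-deficient and wild-type cells. Stimulated against unstimulated, Dnajb1 was lower, with log2 fold changes of -2.84 (SE 0.15) in Gpx4-deficient and -1.66 (SE 0.14) in wild-type cells.

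Of the 10 genes, Dnajb1 was the only one whose response to stimulation edgeR called different between genotypes, where 0.175% of all tested genes were called lower. Its response was lower in Gpx4-deficient cells by -1.19 on the log2 scale (SE 0.19). The unstimulated libraries, on which the genes were chosen, are part of this difference, so it is a description. It was not called without any 1 of the 6 wild-type libraries or of the 3 unstimulated Gpx4-deficient libraries, nor by limma-voom. For Hspa1a the corresponding difference was -1.51 (SE 0.38), not called by edgeR with all libraries, called by edgeR without stimulated Gpx4-deficient replicate 2, and called by DESeq2 at -1.48.

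Dnaja1 (chr4:40722150-40737149, plus strand) encodes the constitutive J-domain partner. It stood at 613.8, 601.4 and 644.7 CPM in stimulated Gpx4-deficient libraries against 495.6, 484.1 and 492.9 CPM in stimulated wild-type ones. Without stimulation it stood at 731.8, 920.9 and 723.0 CPM in Gpx4-deficient libraries against 513.1, 551.3 and 549.0 CPM in wild-type ones. The genotypes did not overlap in either state, but neither log2 fold change, 0.34 with stimulation (SE 0.10, edgeR adjusted p = 0.116) and 0.56 without it (SE 0.10), was called. The ratio of Dnajb1 to Dnaja1 was 0.164 ± 0.0260, 0.206 ± 0.0291, 0.927 ± 0.0602 and 0.595 ± 0.0391 in stimulated Gpx4-deficient, stimulated wild-type, unstimulated Gpx4-deficient and unstimulated wild-type libraries. The inducible partner was thus a smaller part of this pair after stimulation in either genotype.

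**Figure D2:**
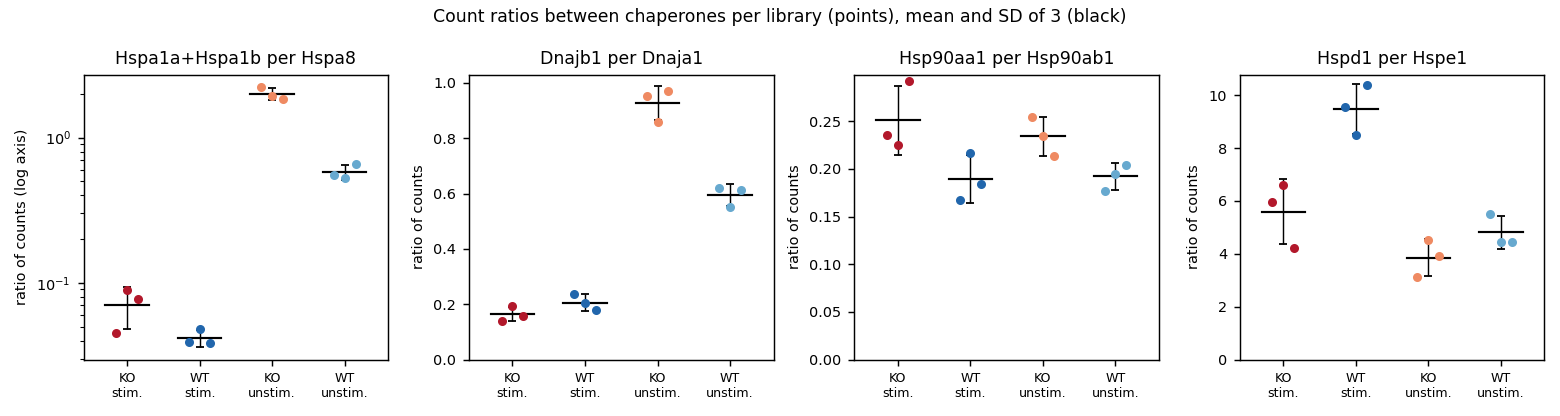
Ratios of counts within pairs of chaperones in each library (points), with the mean and SD of 3 (black), in the same 4 groups; the y axis of the first panel is logarithmic. The HSP70 pair per Hspa8 averages 1.997 in unstimulated Gpx4-deficient libraries against 0.580 in unstimulated wild-type ones, and Hspd1 per Hspe1 is highest in stimulated wild-type libraries.

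Hsph1 (chr5:149614287-149636376, minus strand) encodes HSP110, which recycles HSP70 and takes part in disaggregation. It stood at 225.9, 205.4 and 336.2 CPM in stimulated Gpx4-deficient libraries against 133.8, 162.9 and 181.9 CPM in stimulated wild-type ones. Without stimulation Hsph1 stood at 231.7, 288.5 and 224.5 CPM in Gpx4-deficient libraries against 137.9, 159.1 and 109.6 CPM in wild-type ones. The genotypes did not overlap in either state, with log2 fold changes of 0.68 (SE 0.21, edgeR adjusted p = 0.128) with stimulation and 0.87 (SE 0.21) without it, neither of them called. In contrast to inducible HSP70, the values with and without stimulation overlapped within each genotype. The log2 fold change with stimulation was 0.04 (SE 0.21) in Gpx4-deficient and 0.24 (SE 0.21) in wild-type cells.

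The HSP90 genes are Hsp90aa1 (chr12:110690605-110702728, minus strand), for the inducible form, and Hsp90ab1 (chr17:45567775-45573271, minus strand), for the constitutive form. Hsp90aa1 stood at 545.3, 519.9 and 589.9 CPM in stimulated Gpx4-deficient libraries against 429.7, 460.5 and 469.9 CPM in stimulated wild-type ones. Without stimulation Hsp90aa1 stood at 823.7, 730.9 and 661.4 CPM in Gpx4-deficient libraries against 436.1, 508.2 and 496.9 CPM in wild-type ones. In each state the Gpx4-deficient libraries were higher without overlap, but neither log2 fold change, 0.28 with stimulation (SE 0.11, edgeR adjusted p = 0.192) and 0.62 without it (SE 0.11), was called. The assignment of reads is uncertain here too, since 47.5% of the 50-base stretches of Hsp90aa1 occur in other annotated genes.

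Hsp90ab1 stood at 2318, 2309 and 2017 CPM in stimulated Gpx4-deficient libraries against 2573, 2124 and 2547 CPM in stimulated wild-type ones. Without stimulation Hsp90ab1 stood at 3237, 3112 and 3094 CPM in Gpx4-deficient libraries against 2460, 2610 and 2431 CPM in wild-type ones. The genotypes overlapped with stimulation and were apart without it, with log2 fold changes of -0.12 (SE 0.09, edgeR adjusted p = 0.490) and 0.33 (SE 0.09), neither of them called. With stimulation both HSP90 genes were called lower in Gpx4-deficient cells, with log2 fold changes of -0.42 (SE 0.11) for Hsp90aa1 and -0.51 (SE 0.09) for Hsp90ab1. In wild-type cells the values were -0.08 (SE 0.11) and -0.05 (SE 0.09), neither of them called. The difference between genotypes in the response was not called by edgeR for either gene, at -0.34 (SE 0.15) for Hsp90aa1 and -0.46 (SE 0.12) for Hsp90ab1. DESeq2 called it for Hsp90ab1, at -0.42.

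Hspd1 (chr1:55077835-55088243, minus strand) and Hspe1 (chr1:55088132-55091307, plus strand) encode mitochondrial HSP60 and HSP10. Hspd1 stood at 507.1, 541.2 and 419.4 CPM in stimulated Gpx4-deficient libraries against 611.9, 597.8 and 615.9 CPM in stimulated wild-type ones. Without stimulation it stood at 273.6, 348.0 and 272.5 CPM in Gpx4-deficient libraries against 294.6, 290.9 and 269.6 CPM in wild-type ones. Hspd1 was the only one of the 10 genes to be called higher with stimulation, and the only one whose stimulated Gpx4-deficient libraries all lay below the wild-type ones. Its call with stimulation in Gpx4-deficient cells was lost in edgeR on the libraries of that genotype alone. Its log2 fold change with stimulation was 0.72 (SE 0.12) in Gpx4-deficient and 1.09 (SE 0.13) in wild-type cells, and the difference of -0.38 (SE 0.18) was not called. Between genotypes it was -0.31 with stimulation (SE 0.12, edgeR adjusted p = 0.214, not called) and 0.06 without it (SE 0.12).

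Hspe1 had higher rather than lower values in stimulated Gpx4-deficient libraries. It stood at 84.8, 82.2 and 99.5 CPM in stimulated Gpx4-deficient libraries against 64.0, 70.4 and 59.4 CPM in stimulated wild-type ones. Without stimulation Hspe1 stood at 87.6, 76.9 and 69.8 CPM in Gpx4-deficient libraries against 53.4, 65.3 and 60.4 CPM in wild-type ones. In each state the Gpx4-deficient libraries were higher without overlap. The log2 fold change was 0.46 with stimulation (SE 0.18, edgeR adjusted p = 0.214) and 0.39 without it (SE 0.18), neither of them called. The ratio of Hspd1 to Hspe1 was 5.59 ± 1.23 in stimulated Gpx4-deficient libraries against 9.47 ± 0.944 in stimulated wild-type ones. Without stimulation it was 3.85 ± 0.702 in Gpx4-deficient libraries against 4.81 ± 0.613 in wild-type ones. Of the 50-base stretches, 39.7% of Hspd1 and 18.4% of Hspe1 also occur in other annotated genes, for Hspd1 mostly in Hspd1-ps3.

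With stimulation, then, 3 of the 10 genes (Hspa1a, Hspa1b and Hspa8) were called higher in Gpx4-deficient cells and none lower, where 1.03% of all tested genes were called higher and 1.25% lower. The log2 fold change was positive for 8 genes and negative for Hsp90ab1 and Hspd1, with a median of 0.40 against 0 over all genes. Every Gpx4-deficient library lay above every wild-type library for 7 genes and below for Hspd1, and Dnajb1 and Hsp90ab1 overlapped; 8.29% of all genes were separated upward and 11.9% downward. Of the 10 genes, DESeq2 called 7, limma-voom 1, and edgeR on the 6 stimulated libraries alone 1. Since the 10 genes were chosen with earlier results of these data known, these calls and separations are descriptions. All 10 genes together made up 0.667% to 0.751% of counts in stimulated Gpx4-deficient libraries against 0.539% to 0.590% in stimulated wild-type ones.

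In Gpx4-deficient cells most of these transcripts were lower with stimulation than without it. There 7 genes were called lower (Hspa1a, Hspa1b, Hspa8, Dnajb1, Dnaja1, Hsp90aa1 and Hsp90ab1) and Hspd1 higher, where 7.83% of all tested genes were called lower and 7.45% higher. The genes were chosen on the unstimulated libraries, which are the baseline here, so these counts support nothing. The median log2 fold change of the 10 was -0.46, against -0.02 over all genes. Dnaja1, with a log2 fold change of -0.35 (SE 0.10), and Hsp90aa1 lost the call without replicate 1 or 2 of either group. Hsph1 and Hspe1 were not called. On the 6 Gpx4-deficient libraries alone, edgeR called 4 of the 10, and Hspa8, Dnaja1, Hsp90aa1 and Hspd1 lost the call.

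In wild-type cells stimulation gave 4 genes called lower (Hspa1a, Hspa1b, Hspa8 and Dnajb1) and Hspd1 called higher, where 5.41% of all tested genes were called lower and 6.12% higher. The log2 fold change was -3.59 (SE 0.30) for Hspa1a and -4.98 (SE 0.40) for Hspa1b, against -5.10 (SE 0.32) and -5.65 (SE 0.41) in Gpx4-deficient cells. The median of the 10 was -0.11, against -0.03 over all genes. Both stimulation comparisons and the comparison of their responses use the unstimulated libraries on which the genes were chosen, so p-values of the 10 genes are not given there. For the same reason nothing is read from how many of the 10 were called in them.

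**Figure D3:**
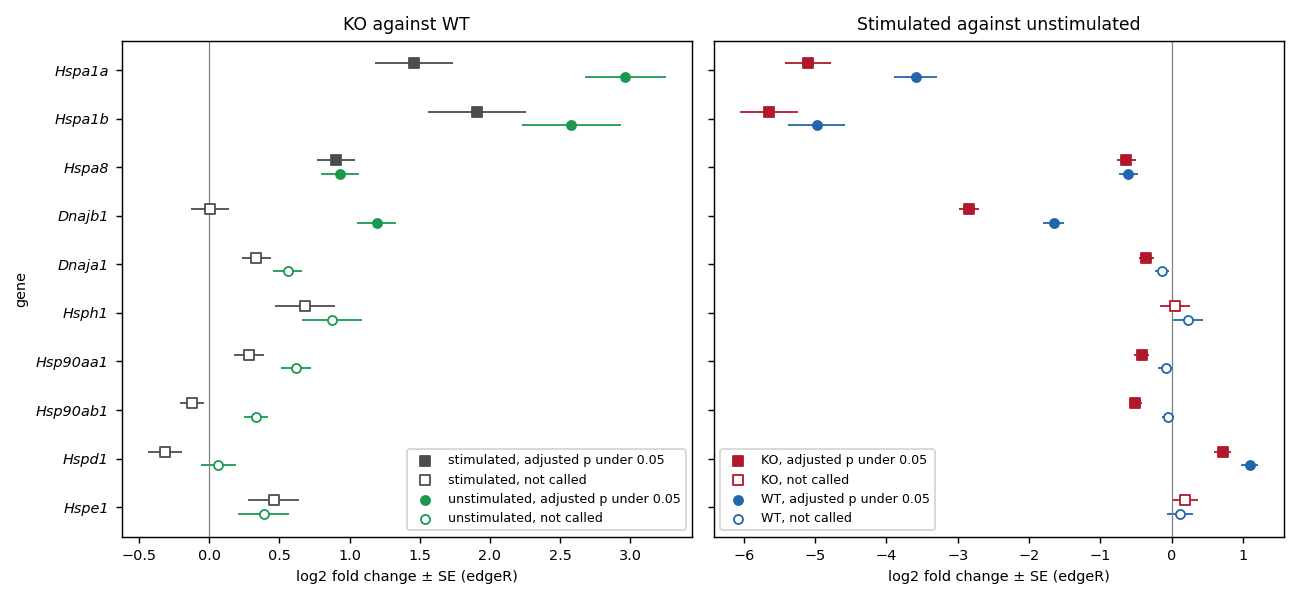
Log2 fold changes with their SE from edgeR (x axis) for the 10 genes, between Gpx4-deficient (KO) and wild-type (WT) cells in each state (left) and between stimulated and unstimulated cells in each genotype (right); filled symbols had an adjusted p under 0.05. On the left Hspa1a and Hspa1b lie farthest to the right, at 2.97 and 2.58 without stimulation, and on the right panel only Hspd1 has filled symbols above 0.

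Set on one scale, CPM per kilobase of exon, the order of the genes by level changed between the groups. The length used was the union of the exons of all annotated transcripts, such as 4301 bases for Hspa8, 2999 for Hsp90ab1 and 8629 for Dnaja1. A gene read mainly from a shorter transcript would stand higher, so the order between genes holds for this choice of length only. In unstimulated Gpx4-deficient cells Hspa1b was first at 1784 CPM per kilobase (1593 to 2149), ahead of Hsp90ab1 at 1050 (1032 to 1080). Hspa1a followed at 966.5 (827.2 to 1173) and Hspa8 at 923.6 (755.8 to 1146), and the ranges of Hsp90ab1, Hspa1a and Hspa8 overlapped, so the order of these 3 genes is not settled. In the other 3 groups Hsp90ab1 came first and Hspa8 second. Hsp90ab1 stood at 738.4, 805.1 and 833.8 CPM per kilobase in stimulated Gpx4-deficient, stimulated wild-type and unstimulated wild-type cells. Hspa8 stood at 595.8, 318.4 and 484.5 CPM per kilobase in those same groups. Hspa1b came next in unstimulated wild-type cells at 298.5 CPM per kilobase. In stimulated cells it stood among the lower genes, at 35.6 CPM per kilobase in Gpx4-deficient and 9.46 in wild-type cells, and its range overlapped that of Hspa1a in each genotype.

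The rest of the chaperone pathway was read from 8 lists of 69 genes, of which 62 were tested. These lists too were chosen with earlier results of these data known, so p-values and calls of their genes are descriptions. Without stimulation edgeR called none of the 62 different between genotypes; 6 of the 62 had an unadjusted p under 0.05, as did 860 of all 14827 genes, and DESeq2 called 3 of the 62 and limma-voom 1. Hsf1, named here after its values were seen because it drives the inducible genes, averaged 216.5 ± 54.2 CPM in unstimulated Gpx4-deficient libraries against 133.7 ± 6.28 CPM in unstimulated wild-type ones (log2 fold change 0.70, SE 0.17, edgeR adjusted p = 0.294). Bag3, a nucleotide exchange factor for HSP70 and itself an HSF1 target, averaged 72.2 ± 28.2 CPM in unstimulated Gpx4-deficient against 26.0 ± 4.74 CPM in unstimulated wild-type libraries (log2 fold change 1.47, SE 0.42, edgeR adjusted p = 0.461). Of the small heat shock proteins only 3 were tested, and they stood at low levels. Hspb1 stood at 8.43, 11.1 and 11.3 CPM in unstimulated Gpx4-deficient libraries against 2.13, 4.86 and 2.28 CPM in unstimulated wild-type ones, without overlap, and was not called. Hspb6 reached 26.3 CPM in stimulated Gpx4-deficient replicate 3 and at most 9.21 CPM elsewhere.

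With stimulation, edgeR called 1 of the 62 pathway genes different between genotypes, against 337 of all 14827 genes. An unadjusted edgeR p under 0.05 was found for 22 of the 62 and for 2715 of all 14827. The called pathway gene, Hspa9, encodes the mitochondrial HSP70 that draws proteins through the inner membrane. It stood at 548.2, 579.1 and 654.7 CPM in stimulated Gpx4-deficient libraries against 952.4, 877.8 and 919.9 CPM in stimulated wild-type ones, a log2 fold change of -0.63 (SE 0.12, edgeR adjusted p = 0.0238). Without any 1 of the stimulated wild-type libraries, or on the 6 stimulated libraries alone, edgeR called 0 of the 62, while DESeq2 called 10 and limma-voom 6. Of the 14 genes in its list of mitochondrial chaperones and proteases, 11 had a negative and 3 a positive log2 fold change, with a median of -0.41 against 0 over all genes. Hspa9 rose with stimulation in both genotypes, by 1.43 in Gpx4-deficient (SE 0.12, edgeR adjusted p = 1.28e-05) and 2.08 in wild-type cells (SE 0.13, edgeR adjusted p = 6.10e-07) on the log2 scale. The difference between these responses, -0.65 (SE 0.17), was not called (edgeR adjusted p = 0.259).

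Stimulation changed 16 of the 62 pathway genes in Gpx4-deficient cells, 9 upward and 7 downward, and 13 in wild-type cells, 10 upward and 3 downward. Of all tested genes, 7.45% were called upward and 7.83% downward in Gpx4-deficient cells, and 6.12% and 5.41% in wild-type cells. Bag3 fell in both genotypes, by log2 fold changes of -1.88 in Gpx4-deficient (SE 0.42, edgeR adjusted p = 0.0104) and -1.70 in wild-type cells (SE 0.42, edgeR adjusted p = 0.0208). Ubb, a ubiquitin gene, fell as well, by -0.53 in Gpx4-deficient (SE 0.09, edgeR adjusted p = 0.00273) and -0.38 in wild-type cells (SE 0.09, edgeR adjusted p = 0.0222). Rising genes in both genotypes were Hspa4, an HSP110 relative, with log2 fold changes of 0.81 in Gpx4-deficient (SE 0.14) and 0.79 in wild-type cells (SE 0.14), and the J-domain genes Dnajb6 and Dnajc2. The HSP90 partners Ptges3 (p23) and Ppid rose in both genotypes, Ppid by 1.04 in Gpx4-deficient (SE 0.18) and 0.85 in wild-type cells (SE 0.18). Calls in Gpx4-deficient cells alone were Bag1, St13 and Hsf2 upward and Cdc37, Fkbp4, Dnaja4 and Bag2 downward, the last at levels near 0. In wild-type cells alone they were Hspa4l, Dnaja2, Lonp1 and Afg3l2, all upward. None of the 62 genes was called by edgeR for the difference between the responses (8 with an unadjusted p under 0.05, as had 1298 of all 14827, 3 called by DESeq2 and 0 by limma-voom).

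**Figure D4:**
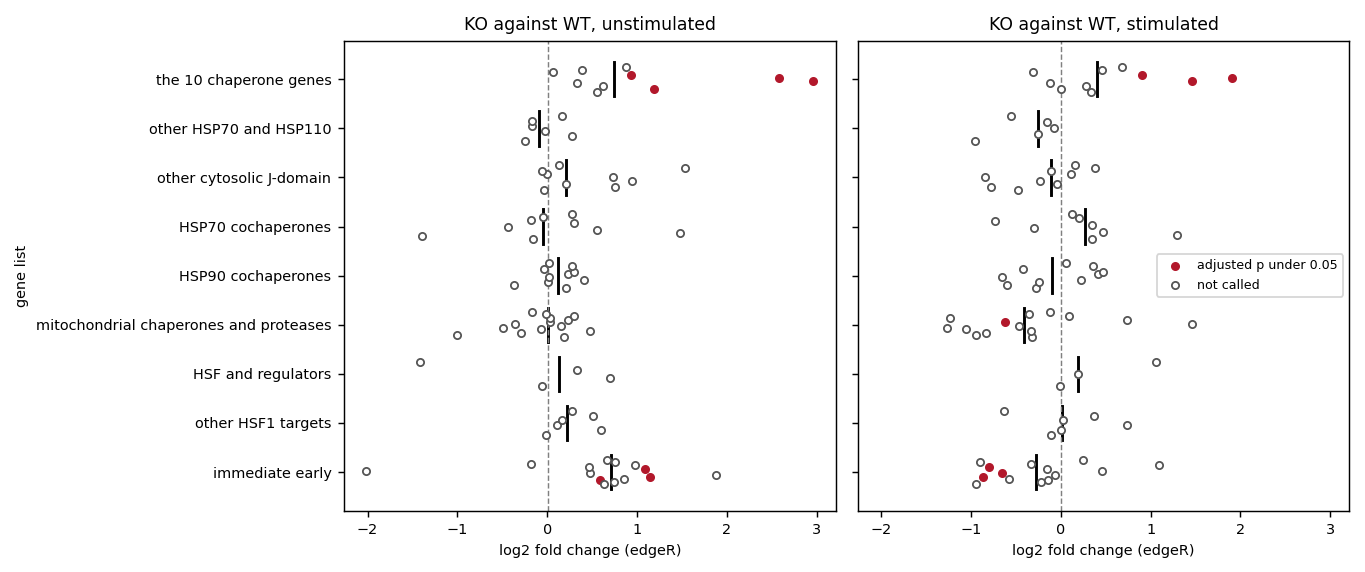
Log2 fold changes (x axis, edgeR) of the 10 genes and of the other lists between Gpx4-deficient (KO) and wild-type (WT) cells, unstimulated (left) and stimulated (right); each point is a gene, red if its adjusted p was under 0.05, the black bar is the median of the points shown, and the dashed line the median of all tested genes. Genes with at most 3 counts in a group are not drawn, nor are the small heat shock proteins. Without stimulation only the 10 genes and the immediate early list hold red points, and with stimulation Hspa9 is the red point among the mitochondrial genes.

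Values of other gene groups, from lists chosen with earlier results known, are set beside the chaperones. The summed CPM of 14 immediate early genes, which many signals induce, ran from 3926 to 4643 in stimulated Gpx4-deficient, 5794 to 5981 in stimulated wild-type, 14649 to 16278 in unstimulated Gpx4-deficient and 9153 to 10469 in unstimulated wild-type libraries. Without stimulation Fos, Jun and Dusp1 were called higher in Gpx4-deficient cells and none of the 14 lower. Fos stood at 3280, 3408 and 3233 CPM in Gpx4-deficient against 1384, 1384 and 1728 CPM in wild-type libraries, a log2 fold change of 1.14 (SE 0.14). None of the 14 was called without unstimulated wild-type replicate 1 or 2 or Gpx4-deficient replicate 2. With stimulation, Fos (log2 fold change -0.86, SE 0.14), Junb (-0.80, SE 0.13) and Ier2 (-0.65, SE 0.12) were called lower in Gpx4-deficient cells and none higher, and 11 of the 14 values were negative. Of all tested genes, 1.25% were called lower and 1.03% higher there. By edgeR, 0 of the 14 were called without stimulated wild-type replicate 1 or 2, or on the stimulated libraries alone. The 10 neutrophil markers summed to 1.30 to 8.08 CPM in unstimulated Gpx4-deficient against 47.2 to 170.6 CPM in unstimulated wild-type libraries, with Ly6g and Cxcr2 at 0 in both groups. The 6 monocyte and macrophage markers summed to 106.5 to 156.1 CPM in stimulated Gpx4-deficient against 42.8 to 83.4 CPM in stimulated wild-type libraries, with none of the 6 at 0 in a whole group. Of these markers only Ccr2 had no overlap there, at 36.2, 90.9 and 47.6 against 30.7, 17.0 and 20.2 CPM. Without stimulation the sums were higher and overlapped, at 152.8 to 184.9 CPM in Gpx4-deficient and 168 to 267.7 CPM in wild-type libraries. Markers of B cells, dendritic cells, CD8 and NK cells and erythroid cells summed to at most 62.9 CPM in any library. The part of these genes, of the mitochondrial share of counts and of the cells they mark in the chaperone differences was not tested.

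Likeness of pattern was measured as the root mean square difference of centred log2 CPM over the 12 libraries. It was taken among 5612 genes whose log2 CPM averaged at least 5, with the 10 chaperone genes left out. The nearest to the sum of Hspa1a and Hspa1b were Fos (1.11), Flt3l (1.14), Igfbp4 (1.40), Cd52 (1.43) and Igflr1 (1.44), where the sum itself had an SD of 2.73 on the same scale. The nearest to Hspd1 were Srsf10 (0.14), Nsun2 (0.15), Slc1a5 (0.15), Napa (0.16) and Relb (0.17), where Hspd1 had an SD of 0.48. None of these genes is a chaperone, but the chaperone genes left out of the search could not appear.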

How the data were processed

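RNA of 12 libraries was analysed from a deposited table of RSEM expected counts per gene, estimated by the authors and often fractional (14.8% to 18.1% of the values in a library). Per the labels' protocols, 600 ng of RNA went into each library, prepared with a stranded mRNA kit. The submitters' processing notes name the build GRCm38; the aligner is not given in the sources used here. Columns were matched to samples by title.

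Expected counts were rounded, filtered with filterByExpr and fitted as 4 group means over all 12 libraries (8 residual degrees of freedom) with edgeR 4.0.16 in R 4.3.3 (TMM scaling, robust quasi-likelihood F test). Benjamini-Hochberg adjustment covered all 14827 tested genes, and a gene was called at an adjusted p under 0.05. The SE comes from the F statistic. Hspa1a and Hspa1b were summed before rounding for a second fit. CPM uses TMM library sizes; log2 CPM for likeness used a prior count of 2. DESeq2 1.42.0 and voom of limma 3.58.1 were alternatives, as were other scalings, no filter, a replicate block and leaving out each library. The scripts were tested on simulated data. Replicate numbers are shared between groups, and the labels do not say whether equal numbers mark the same mouse. Same-numbered libraries did not clearly deviate together over all genes (correlations from -0.02 to 0.03), and they were not treated as pairs. Such correlations cannot exclude a pairing, so the replicate block is given as an alternative.

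The 10 genes and all lists were chosen with earlier results of these data known. Named from the other lists were genes called in any of the 5 contrasts, at most 4 per list and contrast by adjusted p, and the 5 nearest in pattern to the HSP70 sum and to Hspd1; not every such gene is described, and 1 of them is not reported here. Coordinates and exon lengths are from GENCODE M21 (GRCm38), promoter sequences from RefSeq (GRCm38.p6).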

Additional observations from a re-analysis of the deposited data

Results flagged for a closer look

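The response to stimulation was called different between Gpx4-deficient and wild-type cells, by edgeR's test of the difference itself, for Dnajb1 and for 6 immediate early genes. The difference in log2 response, Gpx4-deficient minus wild-type, was -1.19 for Dnajb1 (SE 0.19), given with no p-value because the unstimulated libraries entered the choice of that gene. For Fos it was -2.01 (SE 0.19), with log2 fold changes of -5.56 in Gpx4-deficient and -3.55 in wild-type cells. It was -1.43 for Egr1, -1.26 for Junb, -1.24 for Jun, -1.13 for Ier2 and -0.73 for Dusp1. That list too was chosen with earlier results known, so no p-values are given. With limma-voom none of these was called, and leaving out 1 library left 1 to 7 of the immediate early genes and 0 to 2 of the 10 chaperone genes called. The cause was not tested.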

How the results depend on the processing

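The number of the 10 chaperone genes called between genotypes without stimulation was 4 in edgeR, 8 in DESeq2 and 1 with a replicate block, over 183 and 3 genes in all against 10; limma-voom called 21 genes in all. With stimulation it was 3 in edgeR, 7 in DESeq2, 1 in limma-voom and 1 in edgeR on those 2 groups alone, where all called genes numbered 337, and 1564 in DESeq2, 171 with the block and 22 on the 2 groups alone. With the block 2 of the 10 were called, Hspa1b being lost (adjusted p = 0.0535), and 0 of the 62 pathway genes. For stimulation in Gpx4-deficient cells edgeR on the 2 groups alone called 4 of the 10 against 8, and 1022 genes against 2266, while DESeq2 called 3609. In wild-type cells DESeq2 called 2639 genes and edgeR on the 2 groups alone 3499, against 1709. For the difference between responses DESeq2 called 3 of the 10 and 380 genes, limma-voom 0 and 0, and the block 0 and 5, against 1 and 30. The cause of these shifts was not tested. Whether equal replicate numbers mark pairs of libraries is not stated in the labels. The block changed no direction among the 10 genes. Since the 10 were chosen on the genotype comparison without stimulation, their counts of calls there support nothing. Their counts with stimulation are descriptions, because earlier results of these data were known at the choice.

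Leaving out 1 library at a time gave 1 to 4 of the 10 and 3 to 14 genes in all for unstimulated genotype, 1 to 3 and 117 to 658 for stimulated genotype, 6 to 8 and 1649 to 2521 for stimulation in Gpx4-deficient cells, 4 to 5 and 1150 to 1248 in wild-type cells, and 0 to 2 and 2 to 167 for the difference between responses. Without stimulation, Hspa1a and the HSP70 sum were called each time. Hspa1b was not called without any 1 wild-type replicate or Gpx4-deficient replicate 2. Hspa8 was not called without any 1 wild-type replicate, and Dnajb1 was not called without wild-type replicate 1 or 2. The genes were chosen on this comparison, so whether these calls hold supports nothing. Signs turned only for values near 0. Those were the difference between responses of Hspa8 (0.00714 with DESeq2 size factors, 0.00715 in DESeq2, 0.0187 in limma-voom, -0.12 to 0.19 without 1 library, against -0.03) and Hspe1 (-0.0193 to 0.19). They were also Hspd1 (-0.0400 to 0.16) between unstimulated genotypes, Dnajb1 (-0.0597 to 0.16) between stimulated genotypes, Hsph1 (-0.21 to 0.19) with stimulation in Gpx4-deficient cells and Hsp90ab1 (-0.10 to 0.0178) in wild-type cells. Requiring 3 units in the promoter search left 3 genes against 6.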
